A study of Mus musculus with 6 samples.

Results

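The 300 regions described here were FXR binding sites that were detected in the livers of both genotypes and that ranked lower, relative to the other shared sites, in livers without hepatocyte Bcl6. They were drawn from 9918 pairs of overlapping peaks, which came from 20040 peaks in WT and 12495 peaks in LKO. WT livers came from Bcl6fl/fl mice, in which both Bcl6 alleles carry loxP sites and remain intact. LKO livers came from Bcl6LKO mice, which carry the same floxed alleles together with a Cre transgene driven by the albumin promoter, so that recombination is directed to hepatocytes and the other cells of the liver keep Bcl6. All livers were from male C57BL/6 mice, and the age of the animals is not given in the sources used here. For each genotype there were 2 libraries of FXR ChIP and 1 of input, which was made from sonicated chromatin without immunoprecipitation. The labels do not say that the libraries came from separate animals. The peak tables hold no measure of Bcl6 deletion, so the genotype rests on the labels.

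FXR is a nuclear receptor that is activated by bile acids (BAs). With its partner RXR it binds a DNA element called IR1, a pair of AGGTCA hexamers that face each other across a 1-base spacer, and in liver it is best known for restraining BA synthesis and promoting BA export. BCL6 is a zinc finger repressor that recruits corepressor complexes and, in hepatocytes, is known for shaping lipid metabolism and sex-biased gene expression. In ChIP-seq, sheared chromatin is enriched with an antibody and sequenced, and the number of reads, or tags, in a peak is taken as a measure of how much protein was bound there. A whole liver is a mixture of cells, so binding in fewer cells and less binding per cell cannot be told apart.

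Members were chosen by the FXR ChIP values themselves. The deposited value of each library is on a log2 scale and was fitted by the authors within 1 genotype at a time, so a WT value and an LKO value are not on a common scale. In each library the median over the 9918 pairs was therefore subtracted, and the result is called the centred value. A centred value of 0 is the level of the typical shared site in that library, and a difference is the mean of the LKO libraries minus the mean of the WT libraries. Members are the 300 pairs, 3.02% of all pairs, with the lowest difference among those in which both LKO values lay under both WT values. Such an ordering was met by 2501 pairs, 25.2% of the total, while both LKO values lay over both WT values in 2960 pairs, or 29.8%. Differences below are a description with no test, and they rank a site against the other shared sites without saying whether the amount of bound FXR changed.

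The sequences of several members are shown first, because the IR1 element is what FXR and RXR recognise. Among the 12 lowest members and the members at genes of the lists described further on, 5 had an IR1 match with at most 2 mismatches over its 12 scored bases. The WT peak of each is printed on the plus strand of GRCm38.p6, whose coordinates are those of mm10, with the IR1 match in capitals.
Lrp2bp, chr8:46007397-46007607: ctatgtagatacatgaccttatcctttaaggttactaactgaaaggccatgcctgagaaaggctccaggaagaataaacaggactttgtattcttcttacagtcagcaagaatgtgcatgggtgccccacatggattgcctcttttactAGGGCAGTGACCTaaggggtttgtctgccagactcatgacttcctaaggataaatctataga
Scp2, chr4:108130920-108131130: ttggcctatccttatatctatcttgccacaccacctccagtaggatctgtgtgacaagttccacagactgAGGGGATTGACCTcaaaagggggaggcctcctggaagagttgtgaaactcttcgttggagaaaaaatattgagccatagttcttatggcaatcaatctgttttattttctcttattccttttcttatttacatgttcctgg
Enpp5, chr17:44071801-44072011: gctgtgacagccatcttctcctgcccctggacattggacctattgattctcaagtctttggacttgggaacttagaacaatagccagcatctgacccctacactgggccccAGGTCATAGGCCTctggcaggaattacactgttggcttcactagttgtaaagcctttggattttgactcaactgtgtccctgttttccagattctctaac
Nolc1, chr19:46091760-46091970: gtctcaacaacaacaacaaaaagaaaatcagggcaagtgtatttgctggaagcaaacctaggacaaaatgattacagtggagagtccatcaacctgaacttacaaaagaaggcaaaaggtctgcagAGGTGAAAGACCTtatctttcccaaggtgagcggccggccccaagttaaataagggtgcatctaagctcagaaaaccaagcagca
Mettl14, chr3:123353749-123353959: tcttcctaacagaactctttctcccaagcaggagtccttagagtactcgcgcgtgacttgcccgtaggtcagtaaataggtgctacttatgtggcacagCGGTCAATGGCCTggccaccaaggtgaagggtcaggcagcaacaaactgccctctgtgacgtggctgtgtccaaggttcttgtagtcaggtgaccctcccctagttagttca
The match at Lrp2bp had 1 mismatch and lay 50 bp from the centre of the WT peak, and the other 4 had 2 mismatches each. The match at Mettl14 was at the very centre of its peak, and those at Enpp5, Nolc1 and Scp2 lay 12, 27 and 29 bp away. The peaks at Scp2, Lrp2bp and Enpp5 were annotated to long terminal repeat (LTR) elements, the control regions of endogenous retroviruses. The peak at Ero1lb is shown for another short motif, TATNGAT, which was searched as the core of the site of the liver factor HNF6 (Onecut1) and is in capitals.
Ero1lb, chr13:12550816-12551026: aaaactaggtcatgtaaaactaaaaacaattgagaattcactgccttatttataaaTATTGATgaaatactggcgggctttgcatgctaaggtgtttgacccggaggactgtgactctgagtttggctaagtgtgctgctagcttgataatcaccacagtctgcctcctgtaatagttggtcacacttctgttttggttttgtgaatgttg
The same short motif was also present in the Enpp5 and Lrp2bp peaks, 62 and 100 bp from their centres. A match of letters is a description and was not tested as a bound site.

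Over the 300 members, the median centred value was 0.65 in WT replicate 1 and 0.83 in WT replicate 2, while the LKO replicates had -0.46 and -0.55. The typical member was thus above the typical shared site in both WT libraries and below it in both LKO libraries. On the deposited log2 scale, the medians of the members were 5.67, 6.37, 4.58 and 4.29 in the same order, against 5.01, 5.53, 5.04 and 4.85 for all pairs. The median difference of the members was -1.17, with the middle 80% of the members between -1.65 and -0.99, and that of all pairs was 0.026. Replicates of a member differed by a median of 0.31 in WT and 0.34 in LKO, and those of all pairs by 0.30 and 0.26. The separation of the genotypes was itself a condition of the rule.

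**Figure D1:**
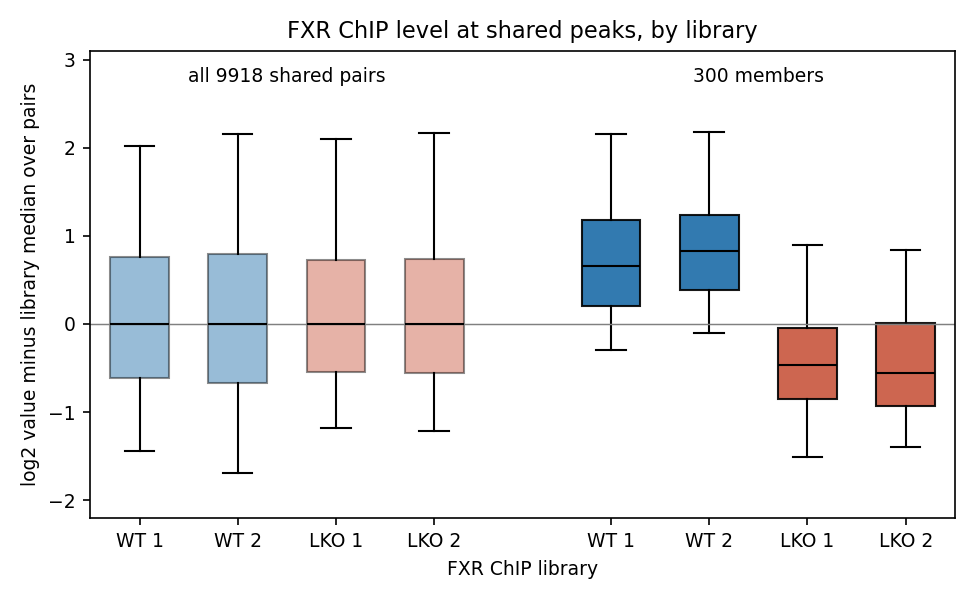
Centred FXR ChIP values (log2 value minus the library median over pairs) of all 9918 shared pairs (pale) and of the 300 members (dark) in each of the 4 ChIP libraries. Boxes span the middle 50%, lines mark medians and whiskers reach the 5th and 95th percentiles; the medians of the members are 0.65 and 0.83 in WT and -0.46 and -0.55 in LKO.

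The members were not one kind of site. In 145 of them, or 48.3%, the site was above the median in both WT libraries and below it in both LKO libraries, a pattern that 4.28% of all pairs had. The rule used these same values and favours this pattern. A further 50 members stayed above the median in all 4 libraries, and 18 were below it in all 4. When all pairs were ordered by their mean WT value and split into 4 strength classes of about equal size, the members numbered 0, 31, 122 and 147 from the weakest to the strongest class. A pair that is weak in WT has little room to be lower in LKO, so this slope follows in part from the rule. At the limit of the rule, the pairs just inside were assigned to Txndc15, Cdh2 and Arsa, and those just outside to Smad2, Cd4 and Cpn2, with differences of -0.97, -0.96 and -0.96 inside and of -0.96 each outside. Another 2 pairs were past the limit and were left out because their groups overlapped, at Dapk1 with a difference of -1.03 and at Mir705 with -0.98. In both, WT replicate 2 was far above WT replicate 1, at 2.35 against 0.20 for Dapk1.

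**Figure D2:**
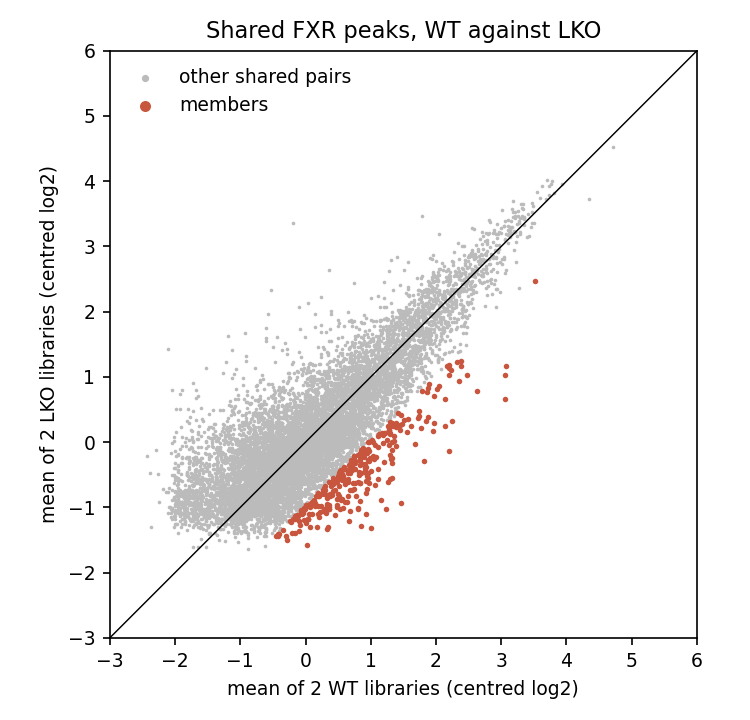
Mean centred log2 value of the 2 WT libraries (horizontal) against that of the 2 LKO libraries (vertical) for each shared pair, with the 300 members coloured and the line of equal values drawn. Members lie under the line over most of the WT range, and none is in the weakest WT strength class.

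The peak score, which counts the tags of the pooled ChIP libraries of a genotype per 10000000, is made from the same reads and is given for scale. Its median over members was 61.4 in WT and 13.9 in LKO, against 39.05 and 19.1 over all pairs. The ratio of the WT score to the LKO score had a median of 4.17 among members and 1.97 among all pairs, and it was above 3 in 290 of the members, or 96.7%, against 9.55% of all pairs. In whole tags, a member held a median of 134.5 in WT and 61 in LKO, and a pair in general held 85.5 and 84. The libraries were of unequal depth. WT replicate 1 had 19022618 tags, WT replicate 2 only 2883717, and the LKO replicates 21287263 and 22637613, so 86.8% of the pooled WT tags came from 1 library. The median difference of the members was -1.13 with WT replicate 1 alone and -1.28 with WT replicate 2 alone. The members had been chosen with both replicates, so a low value was fixed in part by the rule.

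The lowest difference was at Rcan2, which encodes a regulator of the phosphatase calcineurin. The peak, at chr17:43858116-43858326, lies in an intron 54218 bp downstream of the transcription start site (TSS), within a short SINE repeat. Its centred values were 1.29 and 1.64 in WT and -1.25 and -0.63 in LKO, a difference of -2.40. The pooled libraries held 213 tags there in WT (95% Poisson interval 185 to 244) and 44 in LKO (32.0 to 59.1). These are raw tags from pools of unequal depth, the LKO pool being the deeper, so the counts are not on a common scale. The same reads were used to pick this site as the lowest of all members. The intervals therefore cover counting error only and are no test of a difference. The site was well above the typical shared site in WT and well below it in LKO.

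A second member with a difference of -2.40 was at the transcription termination site of Tmem50a, which encodes a membrane protein, at chr4:134897343-134897553. This was among the strongest members in WT, with centred values of 3.28 and 2.85. It remained above the typical shared site in LKO, at 0.54 and 0.80, with 762 raw pooled tags in WT and 146 in LKO. The third was an intergenic site at chr1:21304263-21304473, 6056 bp upstream of the predicted gene Gm4956, with 2.24 and 2.15 in WT and -0.28 and 0.02 in LKO. At an intergenic site 247398 bp upstream of St8sia3, which encodes a sialyltransferase, the LKO replicates stood apart at -2.08 and -0.54. Both were below the WT values of 1.08 and 0.92.

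At the 5 sites with a printed IR1 match, both LKO values lay under both WT values, as the rule requires of every member. Their strengths differed. At Scp2, which encodes the sterol carrier protein and a peroxisomal thiolase used in BA synthesis, the site 12478 bp upstream of the TSS had 0.80 and 1.68 in WT and -1.18 and -0.87 in LKO. At Lrp2bp, which encodes a protein that binds the endocytic receptor megalin, the site 3100 bp upstream had 0.52 and 1.19 in WT and -1.05 and -1.51 in LKO. It was the weakest in WT of these 5, although its IR1 match was the closest. The site 6896 bp upstream of Enpp5, a member of the nucleotide pyrophosphatase family, had 1.95 and 1.67 in WT and -0.09 and -0.49 in LKO. The site 16018 bp downstream of the TSS of Nolc1, which encodes a nucleolar phosphoprotein, had 1.20 and 1.11 in WT and -0.85 and -0.92 in LKO. The replicates at Nolc1 were closer to each other than the median gap among members. The site assigned to Mettl14, a subunit of the RNA adenosine methyltransferase, was much stronger, with 2.77 and 3.38 in WT and 1.25 and 1.08 in LKO. It lies in an intron of the neighbouring gene Sec24d, 32136 bp from the Mettl14 TSS, so the gene name is the nearest start site only.

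The remaining sites of the 12 lowest were at Ero1lb, Tex45 and Slc46a3. Ero1lb encodes an oxidase of the endoplasmic reticulum, and its site, 14962 bp upstream, had 2.92 and 3.21 in WT and 0.68 and 1.37 in LKO. The site in an intron of Tex45 had 0.90 and 0.96 in WT and -1.26 and -0.94 in LKO. The site 8715 bp upstream of Slc46a3, which encodes a lysosomal transporter, had 2.21 and 2.27 in WT and 0.11 and 0.52 in LKO. Both LKO values stayed above the typical shared site at Tmem50a, Ero1lb, Slc46a3 and Mettl14, which were all strong in WT. In the other 8, at least 1 LKO value was below that level, also at Gm4956, with 2.24 and 2.15 in WT. The strongest member in WT was an intergenic site at chr13:52022038-52022248 assigned to 4921525O09Rik, with 3.12 and 3.93 in WT and 2.49 and 2.47 in LKO. Its difference of -1.05 came while it stayed among the strong shared sites of both genotypes.

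**Figure D3:**
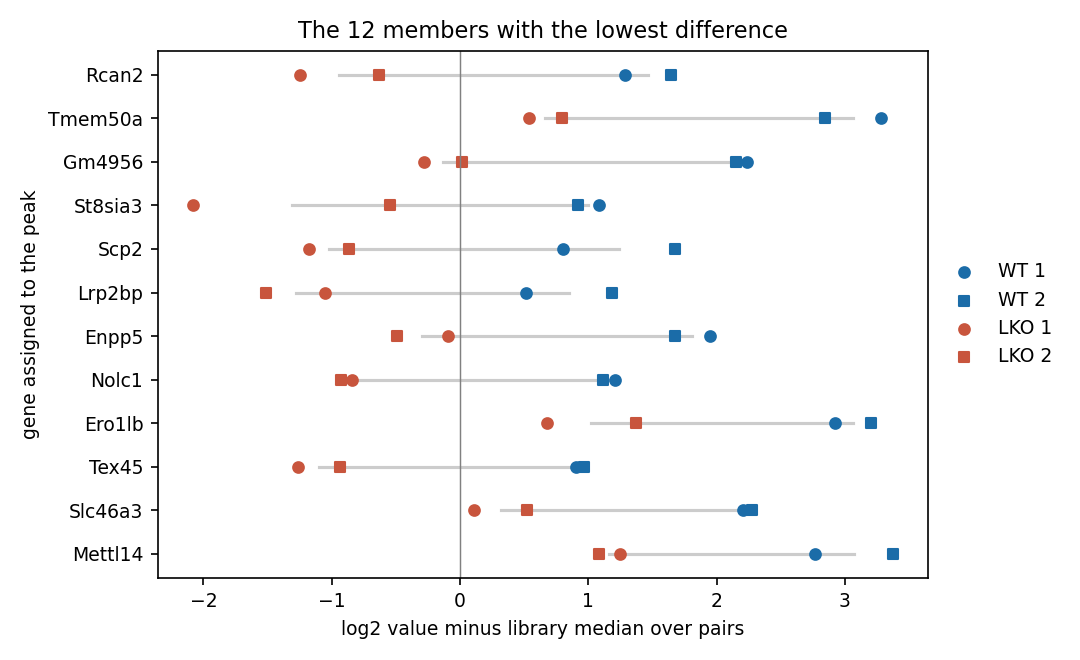
Centred log2 values of the 12 members with the lowest difference, named by the assigned gene, in 2 WT libraries (blue) and 2 LKO libraries (red), with circles for replicate 1, squares for replicate 2 and a grey line joining the means. The differences run from -2.40 at Rcan2 to -1.91 at Mettl14, and at Tmem50a, Ero1lb, Slc46a3 and Mettl14 both LKO values are above 0.

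The 300 members were assigned to 288 genes, of which 12 held 2 members and none held more. How many genes any other 300 pairs would fall on was not counted, so these counts do not say whether members were spread or gathered. The members at 4930547E08Rik were 2 peaks less than 1 kb apart, with differences of -1.84 and -1.10, and at Fam213b, which encodes a prostaglandin synthase, they were an intronic peak at -1.20 and an upstream peak at -1.74. The other pair of members at 4921525O09Rik had differences of -1.53 and -1.05, and the remaining genes with 2 members were Zfp608, Cyp2d10, Gcnt1, Aox3, Slco1b2, Sult2a7, Aass, Slc6a6 and Ntrk2. Of the genes with a member, 177 also held pairs that were no members. These 463 pairs had a median difference of -0.068 and 53.8% were below 0, against 0.050 and 46.0% for the 9155 pairs at genes without a member. The other FXR sites at these genes were thus centred near the typical shared site.

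The members were also counted over 8 short lists of named genes, which do not hold every gene of a pathway, and the counts are read against the 3.02% of all pairs that were members. On a list of 18 genes of BA synthesis and its control, among them Cyp7a1, Nr0b2 and Klb, 0 of 42 pairs were members, and their median difference was -0.037. Scp2, described above, was not on that list. On a list of 31 genes of plasma proteins, complement and coagulation, 0 of 43 pairs were members, with a median of -0.19. Members at the plasma protein genes Ahsg and Gc lay outside that list, with differences of -1.15 and -1.38, and are named here after their values were seen. The Gc site was intergenic, 179377 bp from the TSS. With so few pairs, counts of 0 and of 1 or 2 are not far from that share. Of the 32 pairs at genes of BA and bile lipid transport on the list, 2 were members, both at Slco1b2, which encodes an uptake transporter of BAs on the sinusoidal side of hepatocytes. Its peak 38434 bp upstream, within an LTR element, had 0.85 and 1.24 in WT and -0.50 and -0.02 in LKO, and the peak 13973 bp upstream had 1.25 and 1.51 in WT and 0.09 and 0.48 in LKO. The peak at the promoter of the same gene had a difference of 0.19. Its values overlapped, at 0.34 and 0.55 in WT and 0.53 and 0.75 in LKO. The other pairs at Slco1b2, both intronic, had differences of -0.94 and 0.93, so the sites of 1 gene differed in direction.

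Among 59 pairs at genes of lipoprotein and cholesterol metabolism, 2 were members, the median difference was -0.0050, and both LKO values lay under both WT values in 20.3%, against 25.2% of all pairs. Among 55 pairs at genes of fatty acid and glucose metabolism, 2 were members. A peak assigned to Ppargc1a, a coactivator of fasting metabolism, had a difference of -1.18 and was intergenic, 265501 bp from the TSS. A peak 8696 bp upstream of Scd1, the stearoyl-CoA desaturase, had -1.07. This list had the lowest median of the 8, at -0.27, and both LKO values lay under both WT values in 38.2% of its pairs. On the list of 16 genes of xenobiotic and steroid metabolism, that ordering was met by 43.8% of 16 pairs, the median difference was -0.23, and 1 pair was a member, in an intron of Gsta2, a glutathione transferase, with 0.91 and 0.94 in WT and -0.21 and -0.55 in LKO. Cyp2d10, Sult2a7 and Aox3, each with 2 members, also encode enzymes of drug or steroid metabolism but were not on the list. They are named here after their values were seen, and no share was counted for such genes outside the list. The Cyp2d10 members lay 0.624 kb apart. An Aox3 member lay 11217 bp upstream of the TSS, in an intron annotated to another transcript.

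The list of growth hormone, STAT and BCL6 genes held 4 members among 44 pairs. They included an intronic site at Igf1, the growth factor that liver makes in response to growth hormone, with a difference of -1.13. Its WT peak (chr10:87906891-87907101) and LKO peak (chr10:87906746-87906950) overlapped only in part. A site 14986 bp upstream of Igfbp2, a binding protein of that growth factor, had -1.01. An intergenic site 193227 bp from the TSS of Bcor, a corepressor of BCL6, had -1.02. Of 48 pairs at hepatocyte transcription factors, 3 were members, at Nr2f2 with -1.34, at Rora with -1.21 and at Prox1 with -1.05. The Nr2f2 and Prox1 sites were intergenic, 158878 and 62654 bp from the TSS, and the Rora site was intronic. At Nr2f2, which encodes a nuclear receptor, a second pair less than 1 kb away had a difference of 0.16. Over all lists, 14 of 339 pairs were members, the median difference was -0.13, and both LKO values lay under both WT values in 30.4%.

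The promoter share of the members was lower than that of all pairs, a description like the other shares below, whose intervals cover counting over pairs only. Of the 300, 14 were annotated to a promoter, or 4.67% (95% Wilson interval 2.80 to 7.68), against 11.7% of all pairs. The share was also low, at 3%, among the 300 pairs at the other end, which had the highest difference with both LKO values over both WT values. Pairs of large difference in either direction were thus mostly away from promoters. Within the strongest WT class, 4 of 147 members (2.72%) and 15.3% of the other pairs were at promoters. The promoter members included those of Rgs16, Sult2a7, Ahsg, Gpd1 and Hal, which were picked for naming after their values were seen. Ahsg encodes the plasma protein fetuin-A, and its peak had 0.26 and 1.16 in WT and -0.21 and -0.66 in LKO.

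The intergenic share was 49.0% (43.4 to 54.6) among members, 34.2% among all pairs and 36.3% at the other end. Introns held 39.7% of members and 47.0% of all pairs, and the first intron of a gene held 12.3% and 19.9%. The median distance to the nearest TSS was 18514 bp for members and 13015 bp for all pairs.

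A larger part of the members was annotated to repeats. The authors' detailed annotation placed 28 members, or 9.33% (6.54 to 13.2), in LTR elements, against 4.55% of all pairs and 5.00% of the pairs at the other end. The share was alike in the 3 WT strength classes that held members, at 9.68%, 9.02% and 9.52%, while other pairs of these classes had 4.50%, 4.37% and 4.33%. The elements were of many families, and no named element occurred more than 2 times. Over all repeat classes the share was 22.3% in members and 14.9% in all pairs. Only uniquely aligned reads were kept, so a site inside a repeat is seen only where its sequence can be told from other copies.

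**Figure D4:**
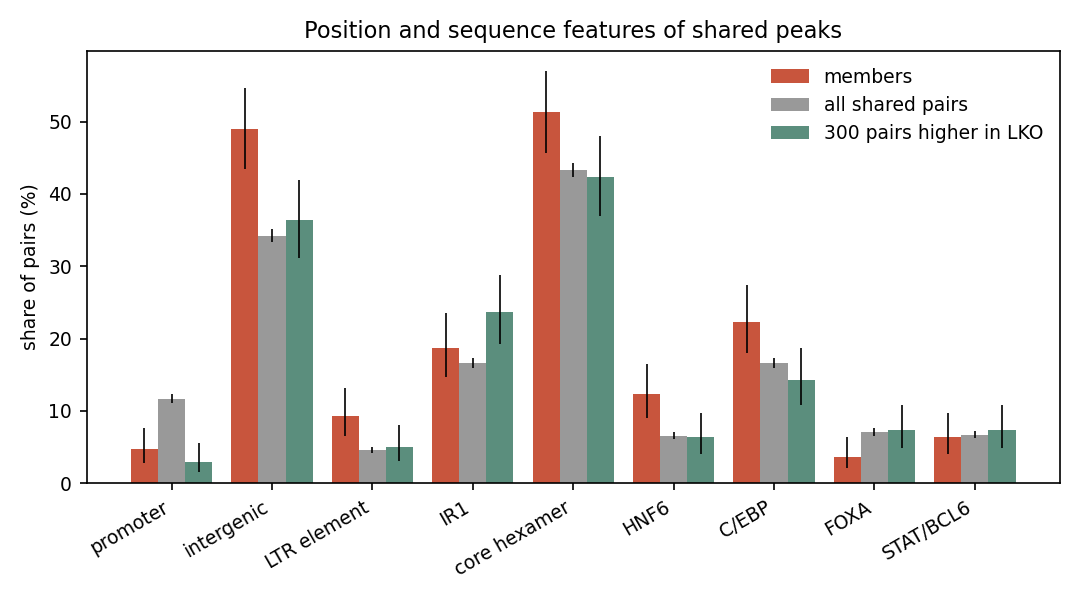
Share of pairs (%) in each position or repeat class or with each motif, for the 300 members, all 9918 shared pairs and the 300 pairs at the other end of the ranking (higher in LKO), with 95% Wilson intervals as bars. Members have fewer promoters (4.67% against 11.7%), more intergenic sites, more LTR elements (9.33% against 4.55%) and more HNF6 cores (12.3% against 6.58%) than all pairs, and a like share of IR1.

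The share with the FXR element itself was close to that of all pairs. An IR1 match with at most 2 mismatches was found in 56 members, or 18.7% (14.7 to 23.5), and in 16.6% of all pairs, and the share at the other end was 23.7%. With at most 1 mismatch the shares were 4.67% and 3.68%. The share depended on WT strength, at 12.4% of pairs in the weakest class, and within the strongest class 25.2% of members and 25.3% of other pairs had one. The single hexamer AGGTCA, which is also part of IR1 and DR1, was in 51.3% of members and 43.2% of all pairs. DR1, in which 2 hexamers face the same way with a 1-base spacer, was matched with at most 2 mismatches in 14.0% of members, 12% of all pairs and 9% of the other end.

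The motif TTCNNNGAA, searched as the core of STAT and BCL6 sites, was in 6.33% of members (4.09 to 9.68), 6.66% of all pairs and 7.33% of the other end. The shares were close, and this says only that these letters were about as frequent in the windows. The HNF6 core TATNGAT was in 37 members, or 12.3% (9.08 to 16.5), against 6.58% of all pairs and 6.33% of the other end. Members were also poorer in G and C, with a median GC content of 48.3% against 50.7%, and this motif is rich in A and T. Among pairs at or under the median GC content the share was 15.8% in members and 10.1% in other pairs, and among pairs over it the shares were 5.77% and 2.73%. Outside promoters the shares were 12.6% and 6.96%.

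The C/EBP core TTNNGCAA was in 22.3% of members, 16.6% of all pairs and 14.3% of the other end. Its share was 29.6% in members and 21.7% in other pairs at or under the median GC content, but 8.65% and 11.1% over it. The FOXA core TGTTTAC went the other way, with 3.67% of members (2.06 to 6.45) and 7.07% of all pairs. The motif GGGCGG of SP and KLF factors, which is common at promoters, was in 6.00% of members and 11.5% of all pairs, and the shares of CAAGGTCA for NR5A2 were 4.67% and 4.38%. The motifs TGANTCA for AP-1 and CCGGAAG for ETS were in 6.67% and 1.33% of members and in 8.60% and 2.38% of all pairs. All motifs were searched on both strands. IR1 and DR1 were searched within 100 bp of the centre of the WT peak, and the other motifs over the whole peak, which is 211 bp wide. Members made up 5.00% of pairs in the lowest of 5 GC bands and 1.79% in the highest, while the median difference of all pairs stayed between 0.0017 and 0.061 over these bands.

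The input libraries also differed at the members. Input values formed a lower band, up to 0.60, and an upper band, from 1.00, with nothing between, and the upper band was taken to hold pairs with tags in the input. In WT, 51.7% of members were in the upper band against 39.4% of all pairs and 14.3% of the other end, and in LKO the shares were 17.7%, 31.1% and 30.0%. Members thus had more input in WT and less in LKO than pairs in general. The share also moved with ChIP strength, being 20.4% in the weakest WT class. Within the WT strength classes that held members, the WT shares were 51.6%, 50% and 53.1% for members and 44.7%, 45.1% and 46.9% for other pairs. From the weakest to the strongest LKO class, the LKO shares were 4.08%, 25.9%, 31.3% and 50% for members and 3.90%, 35.2%, 40.5% and 45.4% for other pairs. These classes held 147, 85, 48 and 20 members, so the LKO share of members was lower than that of other pairs in the middle classes and not in the outer ones. The tables hold only peaks that passed the authors' comparison with input, and the part of the input in the choice of members was not tested.

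Pairs near a member were themselves slightly lower. The 445 pairs that were no members but lay within 50 kb of one had a median difference of -0.090, with 56.6% below 0, and the 9173 pairs farther away had 0.052, with 45.8% below 0. The median was -0.20 within 5 kb (84 pairs), -0.15 from 5 to 10 kb (55 pairs), -0.14 from 10 to 20 kb (96 pairs) and -0.013 from 20 to 50 kb (210 pairs). Beyond 50 kb it was between 0.040 and 0.061 in every distance band. These shifts were small beside the -1.17 of the members, and the middle 50% of the nearest band reached from -0.53 to 0.14. The nearby pairs were above the typical shared site in all 4 libraries, with medians of 0.16 and 0.20 in WT and 0.063 and 0.093 in LKO. They come from the same libraries as the members, so the shift is not separate evidence.

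**Figure D5:**
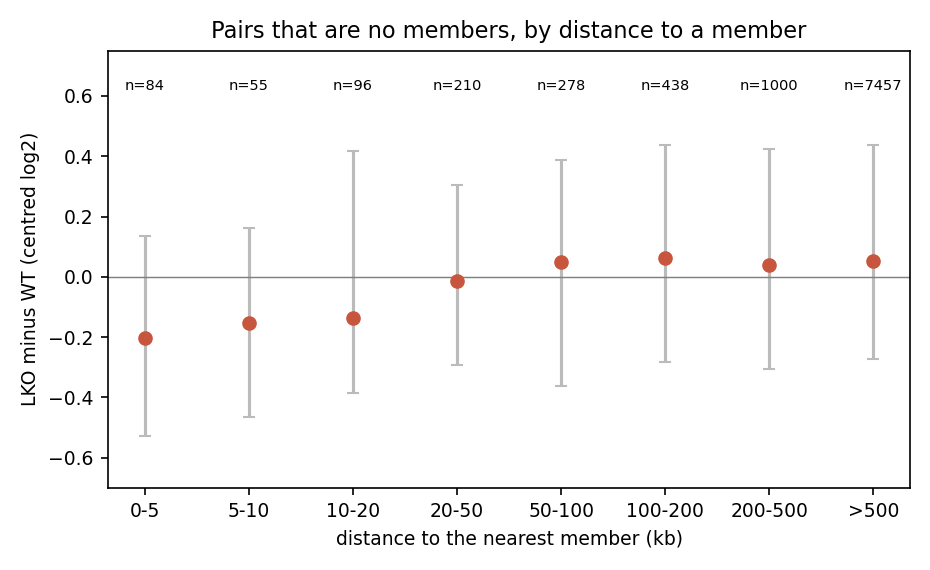
Difference (mean LKO minus mean WT, centred log2) of shared pairs that are no members, by distance in kb to the nearest member, with points at medians, bars over the middle 50% and the number of pairs above each. The median is -0.20 within 5 kb and lies between 0.040 and 0.061 beyond 50 kb.

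Another member lay within 50 kb of 24 members, or 8%, against 4.73% of all pairs and 2.33% of the other end. A peak found in WT only lay within 50 kb of 73.7% of members, and a peak found in LKO only within 50 kb of 22.7%. The shares were 68.3% and 28.3% for all pairs and 44.7% and 33.3% for the other end. Chromosome 18 held 16 members, or 5.33%, against 3.03% of pairs, and chromosome 12 held 3, or 1.00%, against 4.06%, both picked for mention after the counts were seen.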

How the data were processed

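FXR ChIP-seq was measured in liver of 2 genotypes, with 2 ChIP libraries and 1 input each, grouped by their labels. Per the methods and the file headers, the authors crosslinked liver with DSG and formaldehyde, used the antibody E4B8P, aligned single-end reads to mm10 and kept unique alignments. The submitters' processing notes name Bowtie 1.2 and HOMER 4.10. For each genotype, the authors pooled both ChIP libraries to call peaks over input, then ran DESeq2 and filtered peaks on a false discovery rate of 0.05 and a log2 enrichment of 1. There is thus 1 peak list per genotype and none per replicate, and the replicate numbers only name libraries.

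The file headers call the deposited library values tag counts, but they are not whole and some are negative. They were taken as the authors' regularized log2 values, scaled to library totals and fitted within a table, which draws low values together. The deposited peak score is a signal, tags of the pooled ChIP libraries per 10000000. Multiplied back by the pooled totals it gave whole tags (within 0.03) for 100% of 473 WT and 1231 LKO scores under 10. The deposited focus ratio is a fraction, with a median of 0.867 in WT and 0.819 in LKO at members, against 0.837 and 0.823 over all pairs. The authors' columns of ChIP against input fold changes and p-values were not used.

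Here, WT peaks (211 bp) and LKO peaks (205 bp) were paired on an overlap of at least 1 bp, and values were centred and ranked with Python 3.11.15, numpy 2.4.6, pandas 2.3.3 and scipy 1.17.1. Motifs were searched with pysam 0.24.0 in the RefSeq GRCm38.p6 genome, and plots were drawn with matplotlib 3.10.9. Pairing, ranking and the motif search were tested on simulated data. Gene, class and repeat are the authors' annotation, and a gene name marks the nearest TSS only. The members and the gene lists were chosen with earlier results of these data known, and no comparison between genotypes was tested. Text names the 12 lowest members, the 3 strongest in WT, the 3 genes with the most members (ties by the lowest member), members at genes of the lists and the pairs at the limit. Some members that this rule names are not reported here. Wilson and Poisson intervals (95%) cover counting error only, not variation between mice. The inputs held 6964271 (WT) and 6935001 (LKO) tags.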

Additional observations from a re-analysis of the deposited data

How the results depend on the processing

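No result comes from a test, and the labels give no pairing of WT with LKO libraries, so no paired analysis was made. For the members as chosen with all libraries, the median difference ranged from -1.28 to -1.13 when 1 ChIP library was left out. The value farthest from the reported -1.17 was that without WT replicate 1. Because these members were chosen for low differences, this median was bound to stay low. On a quantile scale, with mean centring and with pairs of at least 50% reciprocal overlap it was -1.23, -1.23 and -1.17. Of the members, 290 met that overlap. When the 300 were chosen again, 255 members were chosen on a quantile scale and 268 without pairs of high input, but only 192 to 216 when 1 library was left out, with 192 without LKO replicate 1 and 199 without LKO replicate 2. About 1 member in 3 was thus not chosen again without 1 LKO library. Pairs with both LKO values under both WT values numbered 2747 on a quantile scale against 2501.

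The promoter share of 300 members chosen again stayed between 4.67% and 6.67%, under the 11.7% of all pairs, and the IR1 share between 15% and 18.3%. With at most 1 mismatch it was 4.67%. Leave-outs and added scalings of the HNF6 and LTR shares were chosen after seeing the data. The HNF6 share stayed between 10.0% and 13.3% without 1 library. The LTR share ranged from 6.33% to 8.67%, with 6.33% both without WT replicate 2 and without LKO replicate 1, against 4.55% of all pairs. The mean in place of the median LKO input was 0.23 for members and 0.62 for all pairs. Pairs within 10 kb of a member had a median difference of -0.19 and those within 200 kb -0.0068. The cause of these changes was not tested. WT replicate 2 was 6.60 times shallower than WT replicate 1, and its values carry the most counting error.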
